A study of Mus musculus with 8 samples.

Results

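The 8 genes described here encode the cyclin-dependent kinase (CDK) inhibitors: the CIP members Cdkn1a (p21), Cdkn1b (p27) and Cdkn1c (p57), the INK4 members Cdkn2a (p16 and, from another reading frame, ARF), Cdkn2b (p15), Cdkn2c (p18) and Cdkn2d (p19), and Cdkn3. Cdkn3 is listed with them by its gene name, but it is a phosphatase that removes the activating phosphate from CDKs and belongs to neither family. They were found on the arrays by gene name or transcript accession, and all of their probes were taken: 10 probes of 41174, for 8 of 32053 measured features (genes, or transcripts without a current symbol). Probes were taken without regard to their values, but the genes themselves were chosen with earlier results of these data known.

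The cells were mammary tumour lines from FVB mice with the polyoma middle T (PyMT) transgene, and every sample, controls included, had received 50 uM camptothecin (CPT), a topoisomerase I poison, for 36 h. The line WTA, wild type by its label, carried the LKO1 lentivirus with a short hairpin RNA against Snd1 (Snd1 knockdown, 3 arrays) or the empty LKO1 virus (vector, 3 arrays), both under puromycin selection. The line KO2, from Mtdh-knockout mice, carried a GFP-marked virus with mouse Mtdh (LmPGK-mMtdh-ires2-GFP, wild-type rescue, 1 array) or the same virus with the W391D mutant of Mtdh, which binds Snd1 poorly (W391D rescue, 1 array), both sorted for GFP. Each group comes from 1 tumour line, the knockdown control is an empty virus rather than another hairpin, and cells without CPT were not analysed here. Each sample was labelled with Cy5 and set against Universal Mouse Reference RNA, a mix from mouse cell lines, labelled with Cy3 on the same array. A level is therefore the log2 ratio of sample to reference, which can be compared between arrays for 1 probe but not between probes.

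CDK inhibitors are the brakes of the cell cycle. INK4 proteins bind CDK4 and CDK6 and keep cyclin D from them, which leaves the RB proteins unphosphorylated and the E2F factors bound, and CIP proteins bind cyclin-CDK2 complexes directly. Cdkn1a is the best known transcriptional target of p53 after DNA damage, Cdkn2a and Cdkn2b lie next to each other and respond to oncogenic stress, and the levels of p27 and p57 are set largely by protein degradation, which arrays of RNA do not measure.

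The 3 genes that differed by at least 2-fold between knockdown and vector (Cdkn1a, Cdkn2a and Cdkn3) are shown with the 250 bases before a start site, from RefSeq on build GRCm38.p6, to let their upstream letters be read beside their values. Capitals mark, in Cdkn1a, 20 letters that make up 2 adjoining p53 half-sites of 10 letters with at most 1 mismatch, in Cdkn2a the E2F-type motif TTCCCGC, and in Cdkn3 the CCAAT box (3 times) and the cell cycle homology element TTTGAA (once, on the other strand, so read as TTCAAA).
Cdkn1a, chr17:29090729-29090978, plus strand: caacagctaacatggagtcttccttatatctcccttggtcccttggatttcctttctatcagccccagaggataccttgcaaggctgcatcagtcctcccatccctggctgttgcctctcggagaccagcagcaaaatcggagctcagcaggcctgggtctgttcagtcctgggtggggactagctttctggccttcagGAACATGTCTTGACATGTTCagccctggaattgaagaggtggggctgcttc
Cdkn2a, chr4:89294620-89294869, minus strand: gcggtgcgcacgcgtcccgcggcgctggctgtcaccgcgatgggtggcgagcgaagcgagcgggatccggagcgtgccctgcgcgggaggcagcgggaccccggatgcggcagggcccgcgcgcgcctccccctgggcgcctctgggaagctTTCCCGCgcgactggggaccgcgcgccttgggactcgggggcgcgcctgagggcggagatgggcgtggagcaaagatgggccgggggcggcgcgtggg
Cdkn3, chr14:46760291-46760540, plus strand: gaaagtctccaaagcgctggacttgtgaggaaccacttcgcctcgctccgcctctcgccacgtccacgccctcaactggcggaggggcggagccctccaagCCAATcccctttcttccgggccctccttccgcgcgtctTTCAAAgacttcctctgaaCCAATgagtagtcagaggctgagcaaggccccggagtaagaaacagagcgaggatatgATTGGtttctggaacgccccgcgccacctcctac
The window of Cdkn1a is that of the upstream of 2 starts, and the other start lies 2790 bases downstream and has no p53 half-site in its window. The window of Cdkn2a is that of the farther upstream of 2 starts.

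RefSeq windows were at hand for 7 of the 8 genes (10 windows, for Cdkn1c none), and the motifs, chosen after the values had been seen, were searched on both strands in all 32851 windows of that length. A pair of p53 half-sites with at most 1 mismatch occurred in 25 windows (0.0761%), and among those of the CDK inhibitors it was found in that of Cdkn1a. A single p53 half-site, present in 7.13% of all windows, was also found in Cdkn2d. TTCCCGC was present in 3.82% of windows and was found in 1 of the 2 windows of Cdkn2a, the one shown, and in 1 of the 2 windows of Cdkn2c. CCAAT was present in 33.8% of windows and at least 3 times in 2.79%, and it was found in Cdkn3, Cdkn1b (2 matches) and Cdkn2d (1 match). TTTGAA, in 16.0% of windows, was found in Cdkn3 and Cdkn2b. The letters GGGCGG and TATAAA were searched as well. GGGCGG, in 32.7% of windows, was found in Cdkn1a (the downstream start), Cdkn1b, Cdkn2d, Cdkn3 and 1 window each of Cdkn2a and Cdkn2c. TATAAA, in 12.4% of windows, was found in no window of the CDK inhibitors. A match describes the letters and does not show that a factor binds there, and the arrays do not tell which start was used.

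The median Cy5 signal was 158 to 363 per array over a background of 61 to 72, 78.0% to 88.5% of spots were well above background, and no spot was saturated. All 10 probes of the CDK inhibitors were well above background on all 8 arrays. Over the features that passed the filter on dim probes, 1 probe each, arrays of the same group (knockdown or vector) had log ratios correlated at 0.982 to 0.995. Those of knockdown with vector arrays were correlated at 0.856 to 0.875. Knockdown replicate 1 and vector replicate 1 shared slide 1, the other 4 arrays of these groups shared slide 2, and each rescue array lay on its own slide. The labels do not say whether replicates were separate cultures, so the p-values rest on array-to-array spread alone, and that spread may be technical. The hairpin's target checked the labels: the log2 ratio of Snd1 was -3.23, -3.33 and -3.44 in the knockdown and -2.49, -2.40 and -2.43 in the vector arrays, lower in every knockdown array (difference -0.90 ± 0.06 SE, adjusted p = 1.04e-05). Snd1 read -1.92 in the wild-type and -1.98 in the W391D rescue. Mtdh read -0.66 on average in the vector arrays, 0.42 in the wild-type rescue and -0.10 in the W391D rescue. With both rescue arrays as 1 level of the limma fit, Snd1 was 0.49 (adjusted p = 0.00033) and Mtdh 0.81 (adjusted p = 0.000605) above vector.

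Lists of cell type markers were read against the 23.7% of all features that were called higher and the 21.1% called lower in the knockdown. Of 10 fibroblast markers 7 were higher in the knockdown and 0 lower, and the mean log2 ratio of the list was -3.01 to -2.93 in the knockdown, -3.98 to -3.94 in the vector arrays and -3.93 in both rescue arrays. The markers Postn (2.72 ± 0.04), Pdgfrb (2.44 ± 0.05), Col1a1 (2.39 ± 0.07) and Fbln2 (1.27 ± 0.06) differed most. Col1a2 (0.40), Pdgfra (0.19) and Col3a1 (0.16) were higher by less, and Dcn (0.02), Lum (0.10) and Thy1 (0.20) were not called. The median difference of this list was 0.30. Of 7 epithelial markers 5 were lower (Krt8, Krt18, Epcam, Cdh1 and Cldn7) and 2 higher (Krt19 and Cldn4), with list means of 1.49 to 1.54 in the knockdown, 1.70 to 1.80 in the vector and 2.77 to 2.79 in the rescue arrays. All 17 of these markers were well above background on every knockdown and vector array. Of 6 leukocyte markers tested 2 were higher and 1 lower, and of 5 endothelial markers 1 was higher and 2 lower. The part of these marker differences in the results below was not tested, and in RNA from whole cultures fewer cells of a type and less RNA per cell cannot be told apart.

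How the CDK inhibitors differ between CPT-treated cells with less Snd1 and their vector controls was the question of the first comparison. Cdkn1a was 10.03-fold higher in the knockdown, whereas Cdkn3, Cdkn2a and Cdkn2d were 2.61-fold, 2.17-fold and 1.63-fold lower. Cdkn2c was 1.27-fold higher, Cdkn1c 1.09-fold lower, and Cdkn2b and the brighter probe of Cdkn1b did not pass the test. All 8 genes passed the filter on dim probes, and 6 of 8 were called at an adjusted p under 0.05 (limma, Benjamini-Hochberg over 25674 features), where 44.8% of all features tested were called. Of the 8 genes 2 were called higher (23.7% of all features) and 4 lower (21.1%). At 2-fold or more 3 of 8 were called, against 3.79% of all features. The groups did not overlap for 6 of the 8, against 53.2% of all features. The median absolute difference was 0.52 over the 8 genes and 0.14 over all features on the log2 scale, while the signed medians were -0.03 and 0.02. No test of the list as a whole was made.

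**Figure D1:**
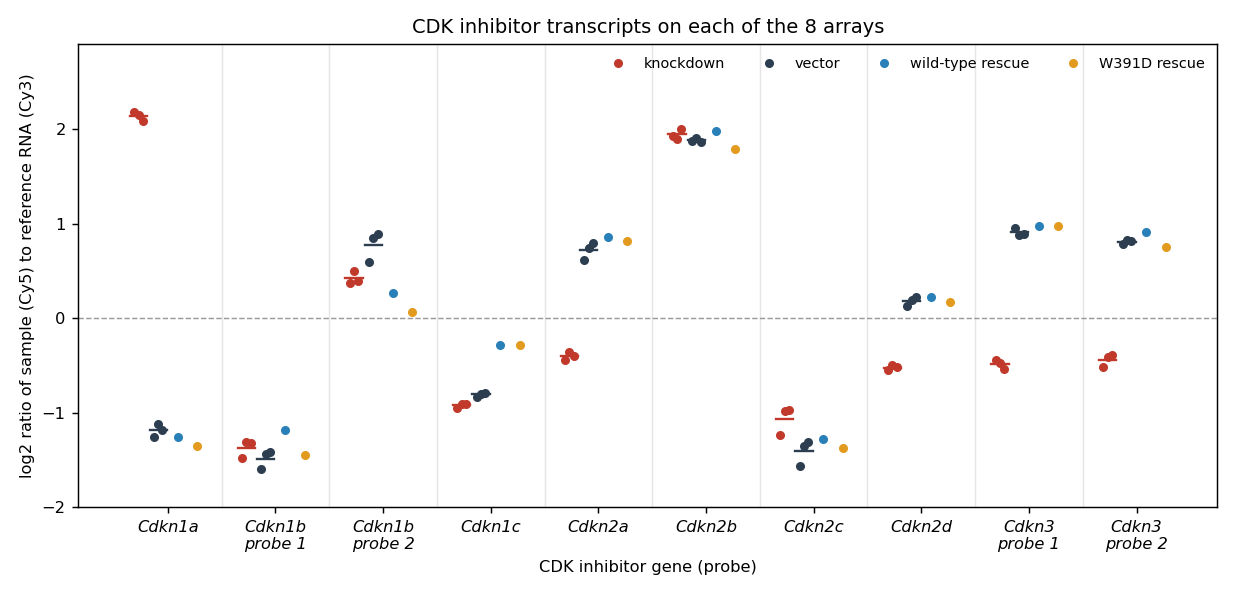
Log2 ratio of sample to reference RNA (y axis) for each of the 10 probes (x axis) on the 8 arrays, with points for arrays and lines for the means of the 3 knockdown and 3 vector arrays. The knockdown arrays stand at 2.09 to 2.18 for Cdkn1a, above all others, and below all others for Cdkn2a, Cdkn2d and both probes of Cdkn3. By smaller gaps they also stand above all others for Cdkn2c and below all others for Cdkn1c.

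Cdkn1a binds and inhibits cyclin-CDK complexes and also the replication clamp PCNA. Its log2 ratio was 2.18, 2.15 and 2.09 in knockdown replicates 1 to 3 and -1.26, -1.12 and -1.18 in vector replicates 1 to 3. The wild-type and W391D rescue arrays read -1.26 and -1.35. The knockdown arrays alone lay above the reference, and those of the vector and rescue cells lay below it, close together. The difference between knockdown and vector was 3.33 ± 0.05 (95% interval 3.21 to 3.45, adjusted p = 1.25e-08), and it was 3.44 on slide 1 and 3.27 on slide 2. The probe is printed in 10 spots per array, of which 8 to 10 were used. Single spots read 2.06 to 2.23 in the knockdown and -1.29 to -1.05 in the vector arrays, with an SD between the spots of an array of 0.02 to 0.06. Before normalization the Cy5 signal was 12111, 17270 and 15368 in the knockdown and 1092, 1738 and 1562 in the vector arrays, so the gap was also visible without the reference channel.

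Cdkn1b (p27) holds cyclin E and CDK2 inactive in resting cells, and its 2 probes disagreed. Probe 1, the brighter one and the one used in the fit of genes, has 1 spot per array. It read -1.48, -1.31 and -1.32 in the knockdown and -1.60, -1.44 and -1.42 in the vector arrays, with -1.18 in the wild-type and -1.45 in the W391D rescue. The groups overlapped, and the difference of 0.12 ± 0.07 (95% interval -0.04 to 0.28) did not pass the test (adjusted p = 0.213). Probe 2, in 10 spots per array, read 0.37, 0.50 and 0.39 in the knockdown and 0.59, 0.85 and 0.89 in the vector arrays, with 0.27 and 0.07 in the wild-type and W391D rescue. By this probe every knockdown array was lower than every vector array, and both rescue arrays were lower still. Its difference was -0.35 ± 0.08 (adjusted p = 0.007 in a fit of all probes), with -0.22 on slide 1 and -0.42 on slide 2. Single spots overlapped slightly, at 0.29 to 0.61 in the knockdown and 0.52 to 1.03 in the vector arrays. Leaving out each array in turn gave -0.45 to -0.30, called each time, and over all settings the adjusted p was 0.000557 to 0.0294. With slide as a block probe 1 was called higher (0.12 ± 0.04, adjusted p = 0.0299), opposite to probe 2, and over all settings its adjusted p was 0.0299 to 0.812. No direction can therefore be given for the Cdkn1b transcript, and which of them reads the whole of its RNA was not analysed here.

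**Figure D2:**
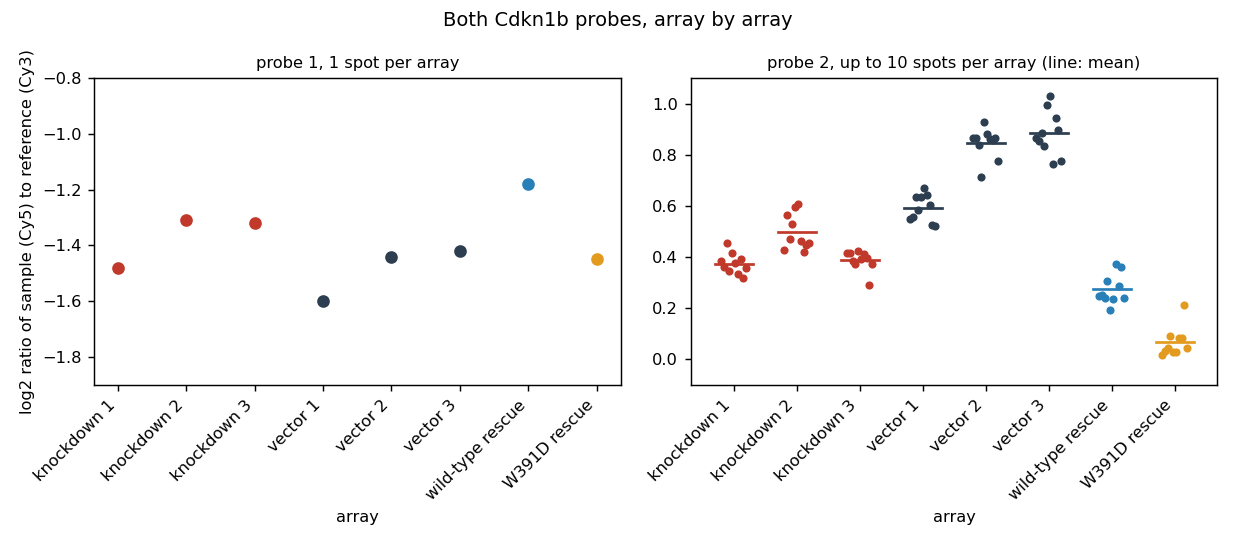
Log2 ratio to the reference (y axis) of both Cdkn1b probes on each array (x axis), with 1 point per spot and, for probe 2, a line at the mean of its spots. Probe 1 overlaps between knockdown and vector, while probe 2 has means of 0.37 to 0.50 in the knockdown and 0.59 to 0.89 in the vector arrays.

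Cdkn1c (p57), an imprinted inhibitor expressed from the maternal allele, gave a dim spot with a Cy5 signal of 89 to 178 in the knockdown and 110 to 225 in the vector arrays. Its log2 ratio was -0.95, -0.91 and -0.91 in the knockdown and -0.83, -0.80 and -0.79 in the vector arrays. The knockdown arrays were lower without overlap, by -0.12 ± 0.04 (95% interval -0.22 to -0.03, adjusted p = 0.0445), and by -0.12 on each slide. The call was lost in 14 of 19 other settings, among them each array left out in turn (adjusted p = 0.0546 to 0.135). The difference was -0.53 ± 0.32 with the scanner software's log ratios and -0.28 with Cy5 alone, neither of them called, and over all settings the adjusted p was 0.0265 to 0.258. Both rescue arrays read -0.28, higher than all others.

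Among the INK4 genes, Cdkn2a encodes p16, which inhibits CDK4 and CDK6, and ARF, which restrains Mdm2. Which of these transcripts the array's probe reads was not worked out here. The probe read -0.44, -0.36 and -0.40 in the knockdown and 0.62, 0.74 and 0.79 in the vector arrays, with 0.86 and 0.82 in the wild-type and W391D rescue. The knockdown arrays lay below the reference and all 5 others above it. The difference was -1.11 ± 0.06 (95% interval -1.24 to -0.99, adjusted p = 1.75e-06), with -1.06 on slide 1 and -1.14 on slide 2. Its 10 spots per array read -0.50 to -0.30 in the knockdown and 0.58 to 0.83 in the vector arrays, with an SD within an array of 0.02 to 0.03.

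Cdkn2b (p15), the neighbour of Cdkn2a and a known target of TGF-beta signalling, read 1.93, 1.90 and 2.00 in the knockdown and 1.87, 1.91 and 1.86 in the vector arrays. Both groups overlapped and lay above the reference, as did the wild-type rescue at 1.98 and the W391D rescue at 1.79. The difference of 0.06 ± 0.05 (95% interval -0.04 to 0.17) was not called (adjusted p = 0.326). Its sign turned with median centring and with Cy5 alone. Over all 8 arrays Cdkn2b spanned 0.21 on the log2 scale and Cdkn1a 3.52.

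Cdkn2c (p18), an INK4 protein that acts on CDK6 in proliferating cells, read -1.24, -0.98 and -0.97 in the knockdown and -1.56, -1.35 and -1.31 in the vector arrays. The groups did not overlap, though replicate 1 was the lowest of each. The difference was 0.34 ± 0.09 (95% interval 0.13 to 0.56, adjusted p = 0.016), with 0.32 on slide 1 and 0.36 on slide 2. Leaving out knockdown replicate 2 (0.30, adjusted p = 0.0589) or 3 (0.30, adjusted p = 0.0622) ended the call, and over all settings the adjusted p was 0.000109 to 0.0862.

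Cdkn2d (p19), an INK4 protein whose level follows the cell cycle, read -0.55, -0.50 and -0.52 in the knockdown and 0.13, 0.19 and 0.22 in the vector arrays, with 0.22 and 0.17 in the wild-type and W391D rescue. Knockdown arrays were below the reference and the others above it. The difference was -0.70 ± 0.04 (95% interval -0.81 to -0.60, adjusted p = 5.7e-06), with -0.68 and -0.72 on slides 1 and 2. Like Cdkn1a, Cdkn2a and Cdkn3, it was called in the same direction in all 19 other settings.

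Cdkn3, the CDK phosphatase, is known for high levels in dividing cells. Its probe 1 read -0.44, -0.47 and -0.54 in the knockdown and 0.95, 0.88 and 0.89 in the vector arrays, with 0.98 and 0.97 in the wild-type and W391D rescue. Its probe 2 read -0.52, -0.41 and -0.39 in the knockdown and 0.78, 0.83 and 0.82 in the vector arrays, with 0.91 and 0.75 in the rescue arrays. By both probes all knockdown arrays fell below the reference and all others stood above it. The differences were -1.39 ± 0.05 (adjusted p = 2.83e-07) for probe 1 and -1.25 ± 0.05 (adjusted p = 5.28e-07) for probe 2, and that of probe 1 was -1.39 and -1.38 on slides 1 and 2.

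**Figure D3:**
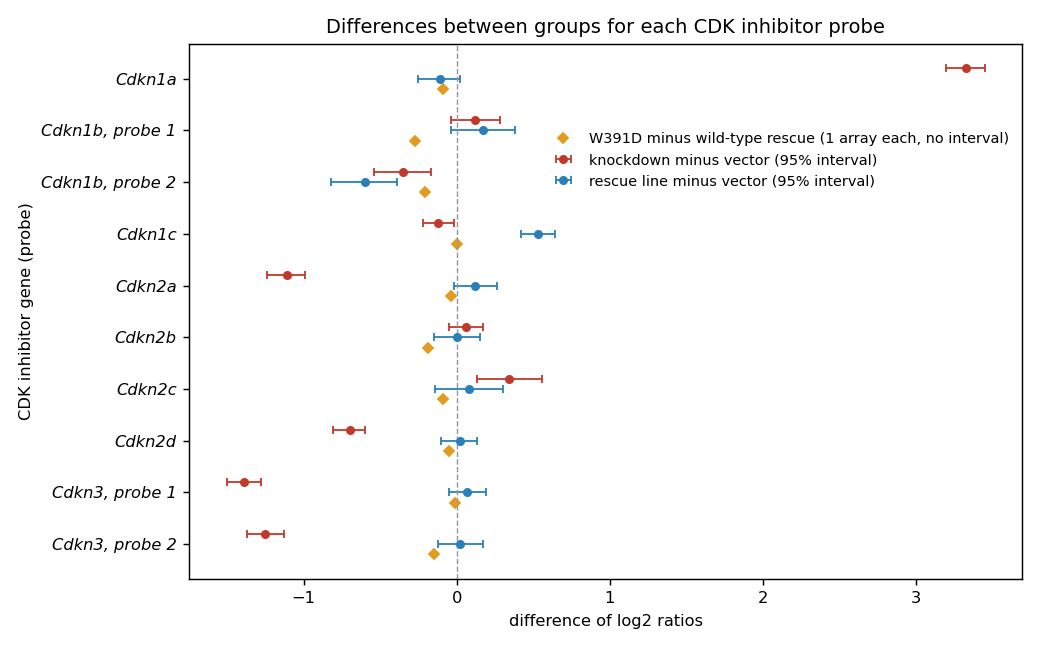
Difference of log2 ratios (x axis) for each of the 10 probes (y axis), with 95% intervals from limma for knockdown minus vector and rescue line minus vector, and diamonds for W391D minus wild-type rescue, which has 1 array each and no interval. Knockdown differences run from -1.39 (Cdkn3) to 3.33 (Cdkn1a), whereas the interval of the rescue line includes 0 for 7 of the 8 genes by the probe used in the fit, and not for Cdkn1c.

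The proteins that the inhibitors act on or answer to were measured on the same arrays. Of 11 cyclins and CDKs tested 3 were higher, 5 lower and 3 not called in the knockdown (median -0.15, against 0.02 for all features), where 23.7% of all features were higher and 21.1% lower. The 5 called lower were cyclin B2 (Ccnb2, -1.54 ± 0.05, adjusted p = 1.87e-07), cyclin A2 (Ccna2, -1.28 ± 0.06, 1.4e-06), the mitotic kinase Cdk1 (-0.83 ± 0.04, 2.47e-06), cyclin B1 (Ccnb1, -0.76 ± 0.05, 6.04e-06) and Cdk2, the kinase that CIP proteins bind (-0.30 ± 0.04, 0.000679). The genes called higher were those of the G1 cyclins E1 (Ccne1, 0.59), E2 (Ccne2, 0.38) and D3 (Ccnd3, 0.20). Cdk2 and the genes called higher or not called were chosen for naming after their values were seen. Cdk4 (0.12, adjusted p = 0.155) and Cdk6 (-0.15, adjusted p = 0.0732), the kinases that INK4 proteins bind, did not pass the test. Nor did cyclin D2 (Ccnd2), which had the largest uncalled difference and a wide error (1.02 ± 0.47, adjusted p = 0.12).

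Of 13 RB and E2F genes 1 was higher, 7 lower and 5 not called (median -0.26), beside 23.7% higher and 21.1% lower of all features. The activators E2f3 (-0.67 ± 0.04, adjusted p = 5.21e-06) and E2f2 (-0.82 ± 0.07, 2.56e-05) and the repressors E2f8 (-0.64 ± 0.05, 1.14e-05) and E2f7 (-0.62 ± 0.05, 3.23e-05) were lower. E2f6, a repressor that does not bind RB, was the one called higher (0.16). Rb1 itself read -0.02 ± 0.05 and E2f1 -0.01 ± 0.05, neither of which passed the test (adjusted p = 0.761 and 0.951).

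Genes whose products degrade the inhibitors gave 3 higher, 4 lower and 4 not called of 11 tested (median -0.08), beside the same 23.7% and 21.1%. Dtl, the adaptor that brings PCNA-bound p21 to the CUL4 ubiquitin ligase, was lower by -1.09 ± 0.04 (adjusted p = 3.76e-07), and so was Cks1b, the cofactor for p27 recognition (-1.09 ± 0.05, 1.03e-06). The scaffold Cul1 was lower (-0.50 ± 0.05, 7.7e-05) and Cul4b higher (0.47 ± 0.04, 3.32e-05).

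Of 24 regulators of the inhibitor genes 11 were higher, 8 lower and 5 not called (median 0.11), beside 23.7% higher and 21.1% lower of all features. Klf4, an activator of Cdkn1a, was higher by 1.20 ± 0.04 (adjusted p = 3.65e-07), and Mdm2, the ligase and target of p53, by 0.94 ± 0.05 (1.58e-06). Id1, an inhibitor of factors that activate Cdkn2a, was higher by 0.82 ± 0.05 (6.04e-06), whereas Ezh2, the Polycomb methyltransferase that silences Cdkn2a, was lower by -0.84 ± 0.05 (2.64e-06). The transcript of p53 (Trp53) differed by 0.18 ± 0.06 (adjusted p = 0.0423). Every one of these 4 lists held genes of both directions.

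**Figure D4:**
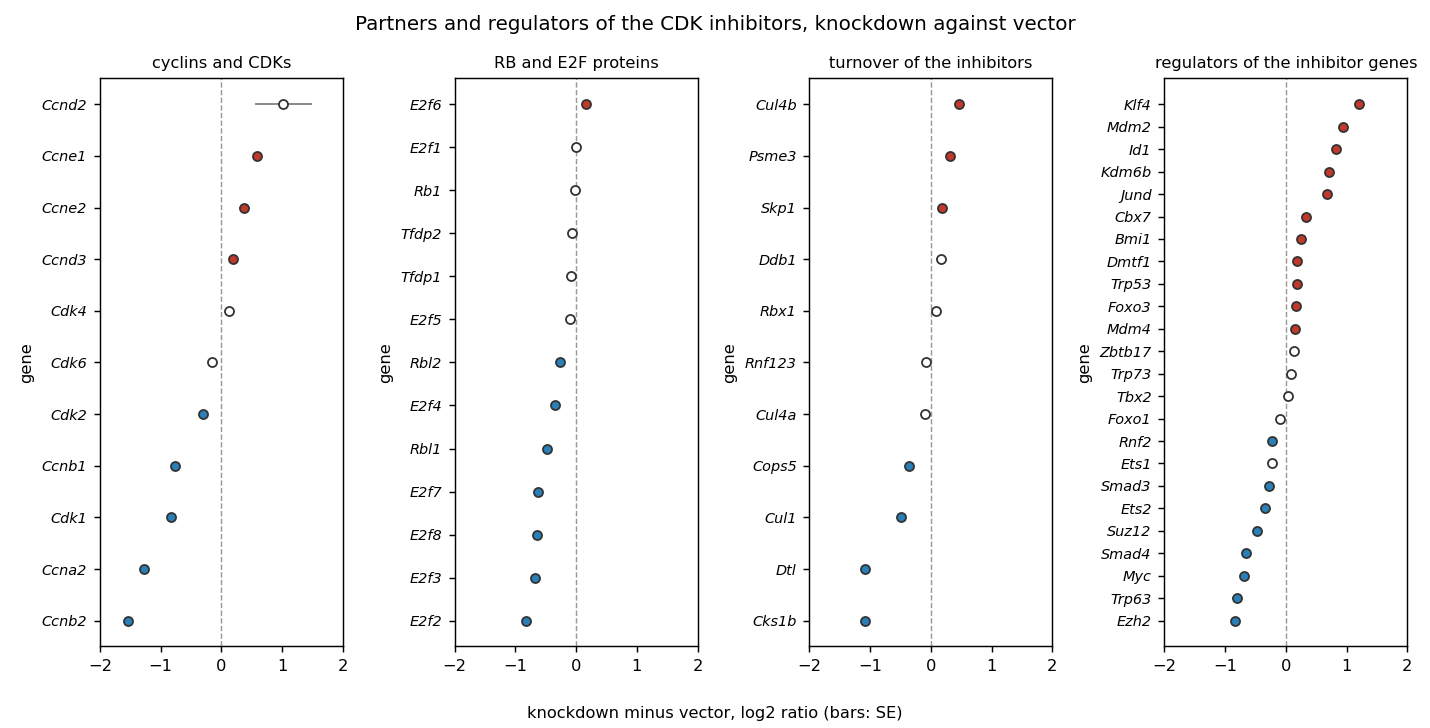
Knockdown minus vector on the log2 scale (x axis, bars 1 SE) for the genes of the 4 lists (y axis), filled red where called higher, blue where called lower and open where not called at an adjusted p of 0.05. Ccnb2, Ccna2, Cdk1, Ccnb1, Dtl, Cks1b, Ezh2, E2f2 and Trp63 lie at -0.76 or below, and Klf4 at 1.20 is the highest of the called genes.

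The levels in the KO2 line, which had been given back Mtdh, were set against the WTA vector arrays in a second comparison, with both rescue arrays taken as 1 level of the fit. It shares its vector arrays with the first comparison. Tumour line, virus, sorting, slide and the levels of Snd1 and Mtdh cannot be told apart in it. Of the 8 genes 1 was called, Cdkn1c, where 41.1% of all 27375 features tested were called. It was higher, as were 23.4% of all features, and 0 of the 8 were lower, against 17.7%. Its difference was 0.53 ± 0.05 (95% interval 0.42 to 0.63, 1.44-fold higher, adjusted p = 1.96e-05), at Cy5 signals of 325 and 345 in the rescue arrays. With the scanner software's own log ratios it was 0.87 and was not called (adjusted p = 0.0838), and over all settings the adjusted p was 1.18e-05 to 0.0838. Over the 8 genes the median absolute difference was 0.10, beside 0.15 over all features.

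The 4 genes that stood farthest from the vector in the knockdown did not pass the test in the rescue line. Cdkn1a differed by -0.11 ± 0.06 (95% interval -0.25 to 0.02, adjusted p = 0.17) and Cdkn2a by 0.12 ± 0.06 (-0.02 to 0.26, 0.146). Cdkn2d differed by 0.02 ± 0.05 (-0.10 to 0.13, 0.835) and Cdkn3 by 0.07 ± 0.05 (-0.05 to 0.19, 0.333). In the knockdown the same genes differed from the same vector arrays by 3.33, -1.11, -0.70 and -1.39. Cdkn2b (0 ± 0.07), Cdkn2c (0.08 ± 0.10) and probe 1 of Cdkn1b (0.17 ± 0.09, adjusted p = 0.177) also missed the threshold. The value of that Cdkn1b probe was 0.04 without the wild-type rescue array, 0.31 without the W391D array (called, adjusted p = 0.0437) and 0.57 with Cy5 alone (called, adjusted p = 0.00386), and over all settings its adjusted p was 0.00386 to 0.817. Probe 2 of Cdkn1b was lower, by -0.60 ± 0.10 (adjusted p = 0.000649 in the fit of all probes), so the 2 probes had opposite signs here too.

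Whether the Snd1-binding site of Mtdh bears on these genes under CPT was the question of the third comparison, W391D against wild-type rescue, with 1 array each and therefore no test. Mtdh itself differed by -0.52 between these arrays, which lay on different slides. Loss of binding, Mtdh level and slide cannot be told apart in this comparison. None of the 8 genes differed by 2-fold (0 of 8, against 0.0037% of all features). Cdkn1b differed most by its probe 1, -0.27, and 4.72% of all features lay farther from 0. Cdkn2b followed at -0.19, with 12.5% of features farther from 0. The others lay between -0.09 (Cdkn1a and Cdkn2c) and 0 (Cdkn1c), and the central 95% of all features ran from -0.28 to 0.26, so that all 8 genes fell inside it. These small differences moved with the processing. With Cy5 alone Cdkn2b (-0.35) passed Cdkn1b (-0.20), and Cdkn2c (0.24), Cdkn2d (0.13) and Cdkn3 (0.03) turned sign. Median centring gave -0.30 for Cdkn2b and -0.33 for Cdkn1b. Probe 2 of Cdkn1b read -0.21 and probe 2 of Cdkn3 -0.15.

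By the order of group levels, Cdkn1a ran from the knockdown through vector and wild-type rescue to W391D rescue, and the rescue line taken as 1 level did not differ from the vector past the test's threshold. Cdkn2a and Cdkn3 had the order wild-type rescue, W391D rescue, vector and knockdown, and Cdkn2d the order wild-type rescue, vector, W391D rescue and knockdown. In these 3 genes too the rescue line as 1 level did not differ from the vector past the threshold. Cdkn1c ran from both rescue arrays, which were level, through vector to knockdown. Cdkn2c ran from knockdown through wild-type and W391D rescue to vector, Cdkn2b from wild-type rescue through knockdown and vector to W391D rescue, and probe 1 of Cdkn1b from wild-type rescue through knockdown and W391D rescue to vector. The order of the single rescue arrays, and of rescue against knockdown, was not tested for any gene.

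The genes whose levels, centred on the vector mean, lay nearest to those of Cdkn1a, Cdkn2a and Cdkn3 over the 8 arrays were found among 15965 named genes by root mean square distance. For Cdkn1a they were the proteoglycan gene Cspg4 and the prostaglandin E synthase gene Ptges (0.15 each) and the keratinocyte envelope gene Sprr1a (0.16), with knockdown differences of 3.28, 3.51 and 3.19. Those nearest to Cdkn2a were Dtl (0.05), Nudt13 (0.06) and C2cd5 (0.07). Those nearest to Cdkn3 were Sapcd2 (0.04), Parm1 (0.05) and Tspan2 (0.05).

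The nearest named genes on both sides of each inhibitor gene, by RefSeq gene order, were examined next. Beside Cdkn1b lies Lockd, a long noncoding RNA, which was lower in the knockdown by -1.48 ± 0.04 (adjusted p = 1.6e-07) while Gpr19 on the other side read 0 ± 0.05 (0.976). Beside Cdkn1a, the splicing factor gene Srsf3 was lower (-0.54 ± 0.07, 0.000391) and Cpne5 higher (0.56 ± 0.06, 8.07e-05). Mtap, which with Cdkn2b flanks Cdkn2a, read -0.12 ± 0.04 and did not pass the test (0.0549). Beside Cdkn2d, the adaptor gene Ap1m2 was lower (-0.71 ± 0.05, 1.14e-05) and Kri1 was not called (0.12 ± 0.04, 0.0522). Kcnq1ot1, the noncoding RNA of the imprinted Cdkn1c locus, was higher by 0.51 ± 0.17 (0.0391), and Slc22a18 was not called (-0.04 ± 0.07, 0.65). Faf1 beside Cdkn2c was lower (-0.20 ± 0.05, 0.00676), its other neighbour 4930522H14Rik read 0.01 (0.901), and Cnih1 beside Cdkn3 read 0.06 (0.448). Dmrta1 beside Cdkn2b and 4933425B07Rik beside Cdkn3 were too dim to be tested. In the rescue line, where 41.1% of all features were called, 8 of these flanking genes had an adjusted p under 0.05 against vector. Cpne5 (0.68), Faf1 (0.44), Slc22a18 (0.40) and Mtap (0.33) were higher, and Lockd (-0.56), Ap1m2 (-0.37), Kri1 (-0.26) and Cnih1 (-0.16) lower. Srsf3 (0.07), Gpr19 (-0.12), Kcnq1ot1 (0.27) and 4930522H14Rik (-0.01) were tested there and not called. The p-values given for the knockdown are adjusted and come from the same fit, in which 44.8% of all features were called.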

How the data were processed

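Two-colour Agilent whole mouse genome arrays measured 8 samples. Per the file headers, the deposited spot intensities are median pixel values of Cy5, Cy3 and local background from Agilent Feature Extraction 11.0.1.1, whereas version 9.5.3.1 is named in the submitters' processing notes. Log10 ratios deposited beside them are that software's background-subtracted, dye-normalized Cy5 over Cy3, per the file headers. The deposited value table holds log2 ratios: each column matched its own array (r 0.9878 to 1, 93.8% to 97.9% of 41156 probes equal within 0.01), and its column medians of 0.091, 0.105, 0.118, 0.146, 0.119, 0.116, 0.026 and 0.035 show no centring. Spot flags deposited by the authors were taken unchanged.

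Intensities were background-corrected by normexp with an offset of 50 (limma 3.58.1, R 4.3.3) and normalized by loess within arrays. Control spots (1639) and outlier spots (77 to 142 per array) were left out, and spots of a probe were averaged. Accessions were matched to symbols in the RefSeq table of GRCm38.p6, which named 27668 of 41174 probes. The brightest probe stood for a gene, and a fit of all probes gave the values of second probes. A feature was kept if Cy5 stood well above background on 3 or more of the 6 knockdown and vector arrays, or, with the rescue arrays, on 2 or more of 8. Differences were tested with lmFit and eBayes, two-sided, with Benjamini-Hochberg adjustment over all features. The fit was tested on simulated data. The dyes were not swapped.

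The genes, the lists, the tests and the naming rule were chosen with earlier results of these data known. Named are the inhibitors, Snd1 and Mtdh, from each list the 4 or fewer called genes of lowest p, the 3 nearest profiles and the flanking genes, and other genes where a count needs them, chosen after their values were seen.

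Knockdown and vector arrays share replicate numbers. After subtraction of the group means, arrays with the same number correlated at 0.597, 0.325 and 0.338, and an alternative therefore paired them, with the replicate number as a block. The pairing follows the slides: differently numbered arrays correlated at 0.39 and 0.247 on slide 2, but at -0.499 to -0.377 across slides. After the subtraction the deviations within a group cancel, so positive correlations on a slide bring negative ones across slides with them.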

Additional observations from a re-analysis of the deposited data

How the results depend on the processing

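Under 19 alternatives Cdkn1a (3.29 to 3.56), Cdkn2a (-1.38 to -1.08), Cdkn2d (-0.88 to -0.69) and Cdkn3 (-1.62 to -1.32) kept their direction and call in knockdown against vector. Between 4 and 7 of the 8 genes were called, and 7743 to 13342 features in all. The difference of Cdkn1c was not called without background correction (-0.14), with the software's log ratios (-0.53), with the value table (-0.53), with median centring (-0.15), with scaling between arrays (-0.11), with Cy5 alone (-0.28), without the filter on dim probes (-0.12), with a trended robust prior (-0.12), or with any 1 array left out (-0.13 to -0.11). Cdkn2b turned sign with median centring (-0.06) and read 0 with Cy5 alone. Cdkn2c was not called with scaling between arrays (0.35) and ran from 0.27 to 0.43 with 1 array left out. Cdkn1b averaged over its probes read -0.12, and it was called with slide as a block (0.12). In these cases the cause was not tested, except that the average of the Cdkn1b probes joins values of opposite sign. With the replicate number as a block 6 of the 8 genes were called and 12905 features, and no call among the 8 changed.

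In the rescue line, the number of the 8 genes called was 0 with the software's log ratios and with the value table, 2 with Cy5 alone, which added Cdkn1b (0.57), and 1 to 2 with 1 array left out, where leaving out the W391D array added Cdkn1b (0.31). These uncalled differences turned sign: Cdkn2b with the software's log ratios and the value table (-0.04 each), median centring (-0.08), Cy5 alone (-0.14) and 1 array left out (-0.09 to 0.10), Cdkn2d with median centring (-0.04) and 1 array left out (-0.01 to 0.04), Cdkn3 with median centring (-0.01) and Cy5 alone (-0.04), Cdkn2c with Cy5 alone (-0.08), and Cdkn1b averaged over its probes (-0.22). The cause was not tested. The number of arrays limits the precision, and Cdkn1c was dim.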
